A study of Mus musculus with 16 samples.

Results

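The 10 early response genes followed in RNA sequencing of mouse myeloid leukaemia were Zfp36 and its paralogs Zfp36l1 and Zfp36l2, Egr1, Egr2 and Egr3, Ier2, Ier3, Dusp1 and Klf2. All 10 were found among the 23999 gene symbols of the deposited count table, and all 10 passed the filter on low counts. They were chosen by name, because Zfp36 had been seen to be lower in sarcoma than in marrow. Their difference between these tissues is therefore given as a description and supports nothing. Samples were myeloid sarcomas, which are solid tumours of leukaemia cells outside the marrow, and whole bone marrow infiltrated by leukaemia. All mice carried mutant NPM1 (NPM1cA). Sarcomas came from 4 mice that were also SMC3+/-, lacking 1 copy of a cohesin gene, with 2 tumours each from mouse 948 and mouse 2721 and 1 each from mouse 1267 and mouse 1268_1270. Marrow came from 9 SMC3+/- mice, of which mice 1267 and 2721 also gave sarcomas. A further sarcoma, from mouse 841, was labelled NPM1cA with no SMC3 change and is called the SMC3 wild-type sarcoma. Sample 1268_1270 was counted as 1 mouse, although its double number leaves room for a pool. The labels give no age, strain or promoter for these alleles.

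Tumours went from dissection straight into the lysis reagent, whereas marrow was crushed out of bone, filtered, cleared of red cells and washed before lysis. Tissue and handling went together in every sample and cannot be told apart. Nor can fewer cells of a type be told apart from less RNA per cell, since these are bulk samples.

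Early response genes are transcribed within minutes of a stimulus, without new protein synthesis, through factors such as SRF and CREB that are already bound at their promoters. Their messages are short-lived, and several of their products act to end the response. ZFP36 proteins bind AU-rich elements in the 3' untranslated region (3' UTR) of messages, such as that of Tnf, and recruit the machinery that removes the poly(A) tail. EGR proteins are zinc finger transcription factors with roles in myeloid differentiation, DUSP1 is a phosphatase of MAP kinases, IER2 and IER3 are early response proteins, and KLF2 is a transcription factor tied to quiescence in leukocytes and endothelium.

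The 16 libraries held 9797201 to 39197660 counts. Values are CPM, which are counts relative to library totals scaled by TMM, a method that evens out differences in composition, and tumours of 1 mouse were pooled. Smc3 was 139 ± 72.9 CPM in the SMC3+/- sarcomas (SD, n = 4) and 137 CPM in the SMC3 wild-type sarcoma, so its level did not separate the labelled genotypes. The summed level of 12 pan-leukocyte markers was 818 CPM in sarcoma 1268_1270, with 44658 CPM of 8 adipocyte markers, and it was 8265 to 15987 CPM in the other 3 SMC3+/- sarcoma mice and 8663 to 15335 CPM in the marrows. Fibroblast markers summed to 677 to 11716 CPM in the SMC3+/- sarcomas, 1615 CPM in the SMC3 wild-type sarcoma and 1.32 to 40.0 CPM in the marrows. Transcripts over 6 kb, a sign of RNA quality, were low in marrows 737, 779 and 782, with median log2 deviations of -2.08, -2.09 and -1.93 from the median library. The deviation was -0.56 in tumour 1 of mouse 948, -0.62 in marrow 1267 and -0.05 to 0.44 in the other 11 libraries.

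Sequences that carry the AU-rich element are shown because ZFP36 proteins bind it and because the genes of the ZFP36 family hold it in their own messages. The core TATTTAT was searched on the sense strand of the 3' UTR of 1 GENCODE transcript per gene, on GRCm38. It was present in 6 of the 10 genes, against 29.2% of 13121 tested genes with a 3' UTR. Zfp36, Zfp36l1, Zfp36l2 and Dusp1 each held 3 copies, Ier3 held 4 and Klf2 held 1. No copy was found in the 3' UTRs of Egr1, Egr2, Egr3 and Ier2, which says only that these letters are not there. Per kb of 3' UTR, Ier3 had 6.53 copies, Dusp1 4.35 and Zfp36 3.88, at percentiles 99.6, 99.2 and 99.0 of the tested genes. A window of 30 bases from each 3' UTR is given, with the core in capitals.
Zfp36: cccttTATTTATgacgacttTATTTATtgt
Zfp36l1: cttatcaaaacgTATTTATtgccaaactat
Zfp36l2: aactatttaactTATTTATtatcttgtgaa
Ier3: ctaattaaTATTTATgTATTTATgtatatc
Dusp1: ggagctggtcctTATTTATttaacaccccc
Klf2: caaacagactgcTATTTATtggaccttagg
The windows of Zfp36 and Ier3 each hold 2 copies, and those of the other 4 genes hold 1.

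Promoters are shown for 3 genes whose windows held a motif of a factor that drives early response genes. Windows from RefSeq (GRCm38.p6) run from 250 bases before to 50 bases after an annotated start, and 6 of the 10 genes had one. Both strands were searched for the CArG box bound by SRF, the CRE TGACGTCA bound by CREB, the EGR site GCGTGGGCG and the AP-1 site TGACTCA. These were found in 1.63%, 1.79%, 0.612% and 5.20% of 32851 windows. Zfp36 held a CArG box that began 58 bases before its start, at chr7:28379179-28379478 on the minus strand. Egr2 held one in 4 of its 5 windows, and in the window shown, chr10:67537619-67537918 on the plus strand, it began 72 bases before the start. Dusp1 held a CRE 143 bases before its start, at chr17:26508423-26508722 on the minus strand. Motifs are in capitals.
Zfp36: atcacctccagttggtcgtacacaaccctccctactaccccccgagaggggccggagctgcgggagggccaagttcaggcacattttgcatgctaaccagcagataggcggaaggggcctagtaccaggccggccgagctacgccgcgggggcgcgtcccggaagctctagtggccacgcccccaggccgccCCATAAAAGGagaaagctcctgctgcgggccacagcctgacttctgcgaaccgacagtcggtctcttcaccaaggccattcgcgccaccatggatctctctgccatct
Egr2: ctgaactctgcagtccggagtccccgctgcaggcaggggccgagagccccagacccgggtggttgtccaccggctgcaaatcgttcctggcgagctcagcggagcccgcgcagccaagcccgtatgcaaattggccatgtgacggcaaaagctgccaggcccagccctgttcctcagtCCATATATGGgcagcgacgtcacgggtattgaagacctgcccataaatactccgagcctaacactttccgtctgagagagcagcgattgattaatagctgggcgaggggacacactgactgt
Dusp1: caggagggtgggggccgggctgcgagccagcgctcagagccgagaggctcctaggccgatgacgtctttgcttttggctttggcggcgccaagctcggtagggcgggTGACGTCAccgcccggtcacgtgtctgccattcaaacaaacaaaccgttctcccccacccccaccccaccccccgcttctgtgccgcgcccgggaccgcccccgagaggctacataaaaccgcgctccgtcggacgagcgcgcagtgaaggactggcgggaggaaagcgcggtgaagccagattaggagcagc
The windows of Zfp36l1, Ier3 and Klf2 held none of the 4 motifs, and those of Egr1, Egr3, Ier2 and Zfp36l2 were not analysed here. A match is a description of the letters and not a measured binding site.

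Zfp36 encodes tristetraprolin, the founding member of the family. Its level was 75.3 CPM in sarcoma 948, 34.0 in sarcoma 1267, 70.3 in sarcoma 1268_1270 and 60.0 in sarcoma 2721, against a lowest value of 135, a median of 207 and a highest value of 1409.9 CPM in the 9 marrows. Every SMC3+/- sarcoma mouse lay below every marrow, a pattern that 0.149% of the 14730 genes tested showed, and nothing is read from it because this contrast chose the gene. The log2 fold change of sarcoma over marrow was -2.67 ± 0.69 (SE). The gap did not hold for single tumours: tumour 2 of mouse 948 had 145 CPM, above the 135 CPM of marrow 1267. Without marrow 949, the highest, the log2 fold change was -1.93. Without the 3 marrows poor in long transcripts and tumour 1 of mouse 948 it was -2.43, and without marrow 949 as well it was -1.41.

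The paralogs Zfp36l1 and Zfp36l2 encode proteins that bind the same kind of element and act in early lymphoid and erythroid development. Zfp36l1 had 52.6, 7.87, 112 and 32.0 CPM in sarcomas 948, 1267, 1268_1270 and 2721, against a lowest value of 0.662, a median of 15.0 and a highest value of 91.7 CPM in the marrows. By edgeR it was the only one of the 10 with a positive log2 fold change, 1.09 ± 0.99 (SE), and the groups overlapped widely. Its 3 lowest marrow values, 1.69, 1.77 and 0.662 CPM, were those of marrows 737, 779 and 782, the libraries poor in long transcripts, whose part in this was not tested. Zfp36l2 had 316, 179, 155 and 219.8 CPM in sarcomas 948, 1267, 1268_1270 and 2721, against a lowest value of 102, a median of 419.8 and a highest value of 707 CPM in the marrows. Its log2 fold change was -0.82 ± 0.52 (SE), with 5 of 9 marrows above the highest sarcoma. The lowest Zfp36l2 marrows were 782, 779, 1267 and 737, at 102, 131, 175 and 196 CPM. They were the marrows with a negative long-transcript deviation, whose part in this was not tested.

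Egr1, the EGR gene most studied in myeloid cells, had 12.1, 9.23, 8.93 and 5.86 CPM in sarcomas 948, 1267, 1268_1270 and 2721, against a lowest value of 3.06, a median of 16.3 and a highest value of 242 CPM in the marrows. Marrows lay on both sides of the sarcomas, and 6 of 9 were above all 4. Egr2 had 4.30, 6.11, 0.862 and 3.29 CPM in the same sarcomas, against a lowest value of 0, a median of 2.09 and a highest value of 16.7 CPM in the marrows. Egr3 had few counts, at 1.07, 1.82, 1.81 and 0.336 CPM in the sarcomas, against a lowest value of 0, a median of 0.161 and a highest value of 9.88 CPM in the marrows. The sarcoma values of Egr2 and Egr3 lay inside the marrow range, and their edgeR log2 fold changes were -0.07 ± 1.15 and -0.15 ± 1.62 (SE). For Egr3, 6 of 9 marrows lay below every sarcoma and 1 above, and for Egr2 3 lay below and 1 above. The sign depended on the tool: Egr3 was at 2.18 by DESeq2 and 2.24 by limma-voom, and Egr2 at -0.10 and 1.23.

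Ier2 had 86.4, 107, 13.3 and 166 CPM in sarcomas 948, 1267, 1268_1270 and 2721, against a lowest value of 166, a median of 186 and a highest value of 545 CPM in the marrows. Marrows 949 and 779, at 545 and 274 CPM, stood above the other 7, which ran between 166 and 199 CPM, and 8 of 9 marrows lay above every sarcoma. Ier3, whose product modulates cell survival, had 93.4, 40.6, 6.67 and 79.3 CPM in the same sarcomas, against a lowest value of 22.3, a median of 47.0 and a highest value of 459.5 CPM in the marrows. The Ier3 groups overlapped, and the log2 fold changes were -1.40 ± 0.54 for Ier2 and -1.07 ± 0.86 for Ier3 (SE). Both were lowest in sarcoma 1268_1270, the tumour with few leukocyte markers, whose makeup was not tested as a cause.

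Dusp1 had 192, 21.9, 73.4 and 151 CPM in sarcomas 948, 1267, 1268_1270 and 2721, against a lowest value of 69.1, a median of 336 and a highest value of 988 CPM in the marrows. The groups overlapped, with 6 of 9 marrows above every sarcoma and a log2 fold change of -2.17 ± 0.81 (SE). Among these 6 were marrows 737, 779 and 782, at 944, 885 and 459 CPM. Those libraries were poor in long transcripts, whose part in this was not tested. Klf2 had 40.4, 9.89, 51.9 and 50.9 CPM in the same sarcomas, against a lowest value of 46.3, a median of 84.2 and a highest value of 413 CPM in the marrows. Again 6 of 9 marrows lay above every sarcoma, and the log2 fold change was -1.83 ± 0.69 (SE). Sarcoma 1267 had the lowest value of both genes among the 4 mice.

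**Figure D1:**
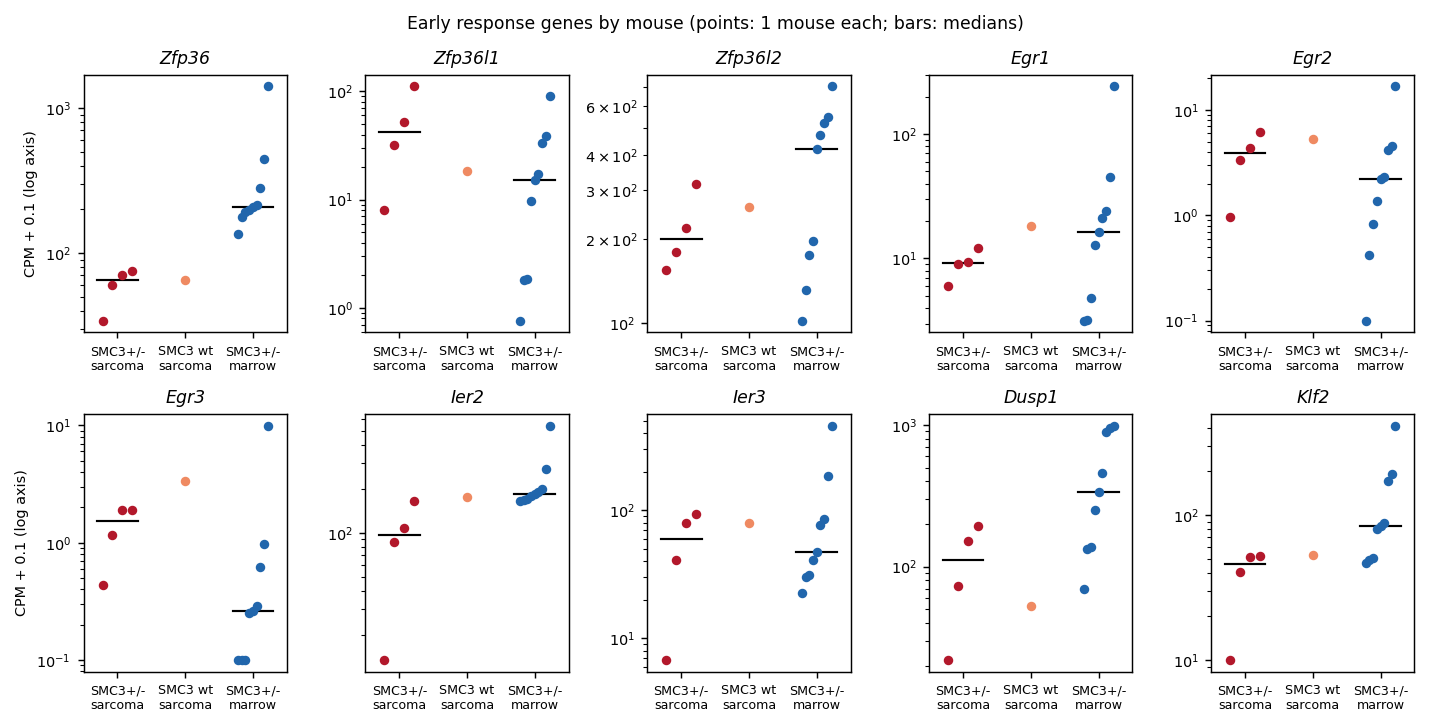
Level of each of the 10 genes by mouse, as CPM + 0.1 on a log axis, in SMC3+/- sarcomas (n = 4), the SMC3 wild-type sarcoma (n = 1) and SMC3+/- marrows (n = 9); each point is 1 mouse and bars are medians. The Zfp36 sarcomas lie between 34.0 and 75.3 CPM, below all marrows, whereas the groups overlap for the other 9 genes.

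Per kb of the longest coding transcript, levels could be compared between genes. The median level in sarcoma was 63.7 CPM per kb for Ier2, 56.5 for Zfp36l2, 56.3 for Dusp1 and 53.0 for Ier3. These 4 neighbours in the order overlapped across mice. Klf2 followed at 24.7, Zfp36 at 23.4 and Zfp36l1 at 14.1 CPM per kb, and the EGR genes were lowest, with 2.03 for Egr1, 1.28 for Egr2 and 0.367 for Egr3. In marrow the medians were 169 CPM per kb for Dusp1, 122 for Ier2, 119 for Zfp36l2 and 74.3 for Zfp36, then 45.6 for Klf2, 41.5 for Ier3 and 5.02 for Zfp36l1. Egr1 was at 3.63, Egr2 at 0.707 and Egr3 at 0.0409 CPM per kb in marrow.

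Across all genes the test called 662 higher in sarcoma, 4.49% of those tested, and 8 lower, 0.0543% (edgeR quasi-likelihood test, Benjamini-Hochberg adjusted p under 0.05). Of the 10 genes 1, Zfp36, was among those called lower and 0 were called higher, and DESeq2 and limma-voom likewise called 1 lower and 0 higher. At an unadjusted p under 0.05, 4 of the 10 were lower and 0 higher by each of the 3 tools. Of the 14730 genes, 310 were lower and 1721 higher by edgeR at that level. The numbers were 558 and 1179 by DESeq2, and 405 and 2032 by limma-voom. Over all genes DESeq2 called 83 lower and 447 higher, and limma-voom 20 lower and 876 higher. By edgeR the fold changes of 9 of the 10 were negative, with a median of -1.24 on the log2 scale. Over all 14730 genes tested 6693 were negative by edgeR, with a median of 0.07. Of the 10 genes, 8 were negative by DESeq2 (median -0.99) and 7 by limma-voom (median -0.81). By edgeR the count was 6 (median -0.15) without the 3 marrows poor in long transcripts, tumour 1 of mouse 948 and marrow 949. Scaled to pan-leukocyte markers in place of TMM, which moved the median of all genes to 2.10, 4 of the 10 were negative and their median was 0.50. Under that scaling Zfp36 was no longer called (-0.14, edgeR adjusted p = 0.889) and Zfp36l1 was called higher (4.20, edgeR adjusted p = 0.0132). That scaling called 8128 of the 14730 genes higher. With a mouse block in the fit of all samples, the Zfp36 fold change was -2.26 (edgeR adjusted p = 0.0855) and none of the 10 was called. With the block over mice 1267 and 2721 alone, Zfp36 (-2.22, edgeR adjusted p = 0.0345) and Klf2 (-2.53, edgeR adjusted p = 0.0291) were called lower. Nothing is read from the calls of these 10 genes, because this contrast was the reason for their choice.

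Among 46 tested genes of a list of other early response genes, which was also drawn up with earlier results known, 1 fell and 2 rose in sarcoma. Fos, the AP-1 subunit, averaged 19.4 ± 11.5 CPM in sarcoma and 366 ± 451 CPM in marrow (SD, n = 4 and 9), a log2 fold change of -4.34 ± 1.00 (SE, edgeR adjusted p = 0.0211). Every SMC3+/- sarcoma mouse was below every marrow for Fos. Cyr61 and Ctgf, matricellular protein genes of mesenchymal and endothelial cells, rose by 5.94 ± 1.29 (edgeR adjusted p = 0.0150) and 4.91 ± 1.18 (edgeR adjusted p = 0.0260) on the log2 scale. They moved with the fibroblast markers, whose part in this was not tested. The remaining 43 did not pass, among them Junb at -2.29 ± 0.71 (edgeR adjusted p = 0.0974) and Dusp6 at -1.44 ± 0.43 (edgeR adjusted p = 0.0803). Fold changes were negative for 31 of the 46, with a median of -0.49, against 6693 of the 14730 genes tested. They were also negative for 11 of 12 pan-leukocyte markers (median -0.66) and 10 of 11 neutrophil markers (median -0.80), and positive for 10 of 10 fibroblast markers. Under pan-leukocyte scaling, 2 of the 46 were called lower and 15 higher, where 8128 of all 14730 genes tested were called higher. The call of Fos was lost without sarcoma 1267, 1268_1270 or 2721 and without tumour 1 of mouse 948, and both higher calls were lost without sarcoma 1268_1270.

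**Figure D2:**
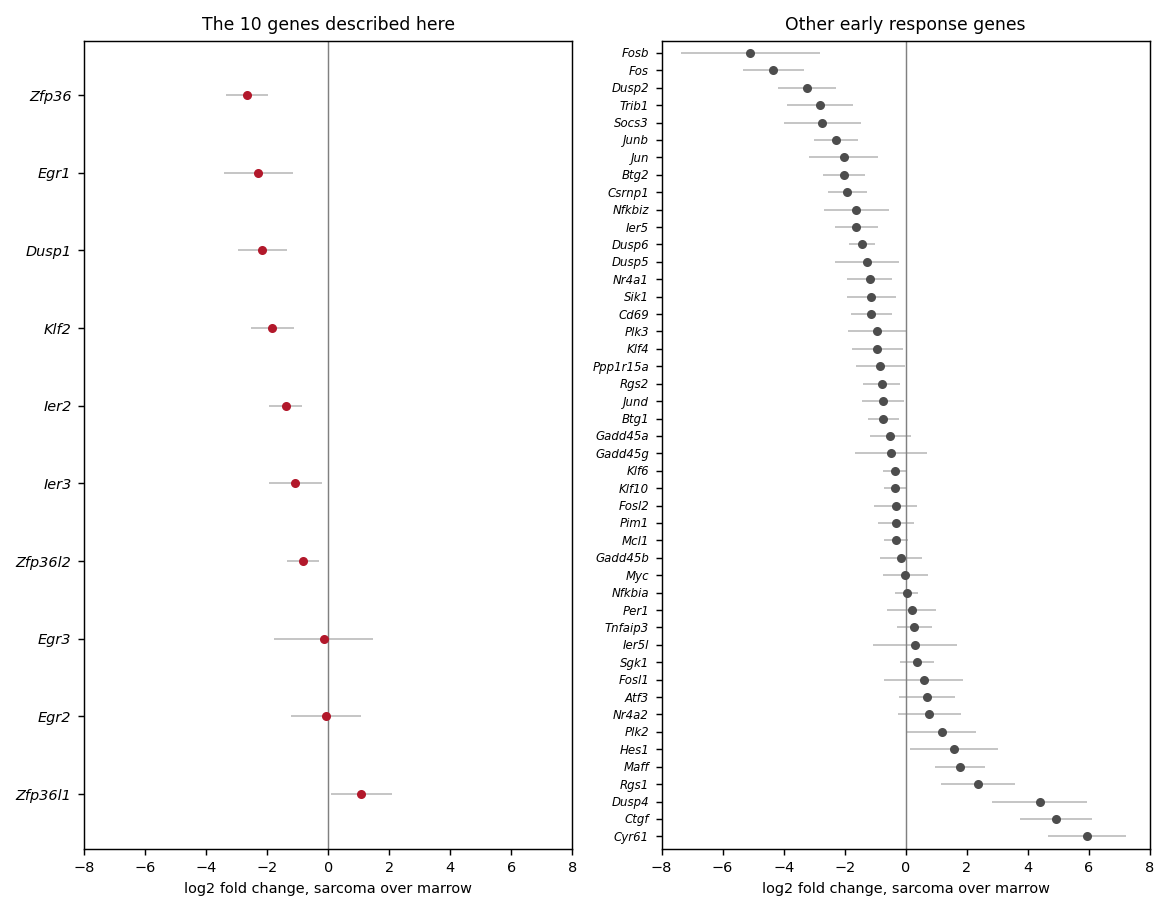
Log2 fold change of sarcoma over marrow with its SE (bars) for the 10 genes (left) and the 46 other early response genes tested (right), from 4 sarcoma and 9 marrow mice. Values run between -2.67 for Zfp36 and 1.09 for Zfp36l1 on the left, and Fos, Ctgf and Cyr61 are the 3 that passed the test on the right.

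Messages that ZFP36 is known to destabilise were read in the same test. Of 14 tested, 0 were called in either direction by edgeR, DESeq2 or limma-voom, with 1 at an unadjusted p under 0.05 in edgeR. Over all 14730 genes tested, edgeR called 4.49% higher and 0.0543% lower, with 2031 at an unadjusted p under 0.05. These shares also stand beside the lists below. At such shares a list this short can hold 0 calls, so nothing is read from 0 calls. Tnf, the classic target, averaged 6.13 ± 4.06 CPM in sarcoma and 25.5 ± 47.3 CPM in marrow (SD, n = 4 and 9), and Vegfa averaged 170 ± 97.9 CPM in sarcoma and 49.1 ± 25.5 CPM in marrow. Their log2 fold changes were -2.15 ± 1.10 and 1.75 ± 0.54 (SE, edgeR adjusted p = 0.435 and 0.0961). Among 17 genes of ZFP36 partners and kinases, such as CCR4-NOT deadenylase subunits and the p38 MAP kinase pathway, 0 were called by edgeR, with 1 at an unadjusted p under 0.05, against 1 lower by DESeq2 and 0 by limma-voom. Mapk14, which encodes p38 alpha, had a log2 fold change of -0.92 ± 0.31 (SE, edgeR adjusted p = 0.138). Among 18 upstream kinase and transcription factor genes, including Srf and Creb1, 0 were called by edgeR, DESeq2 or limma-voom, and 0 had an unadjusted edgeR p under 0.05. Of 6 genes known to be controlled by KLF2, Nos3, the endothelial nitric oxide synthase, rose by 5.61 ± 1.37 on the log2 scale (edgeR adjusted p = 0.0289), together with 4 of 10 endothelial markers. The other 5 did not pass in edgeR, among them S1pr1, a receptor gene for lymphocyte egress, at 2.10 ± 0.86 (SE) and Itgb7, an integrin subunit gene, at -2.56 ± 0.99 (SE, edgeR adjusted p = 0.213). In this list limma-voom called 1 higher and 0 lower, whereas DESeq2 called 0 higher and 1 lower, so the Nos3 call was lost there. Of 12 heat shock genes, which encode chaperones and their partners, 1 rose and 0 fell, against 4.49% higher of all genes tested. It was Hspb1, which rose by 6.03 ± 1.62 on the log2 scale (edgeR adjusted p = 0.0488). Hspb1 averaged 19.0 ± 23.3 CPM in sarcoma and 0.262 ± 0.744 CPM in marrow (SD, n = 4 and 9). It rose together with 4 of 10 endothelial, 6 of 8 skeletal muscle, 9 of 10 fibroblast and 7 of 7 tested adipocyte markers. The part of these markers in the rise was not tested.

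Tumours of the same mouse were compared next. In mouse 948, Zfp36 had 145 CPM in tumour 2 and 22.8 CPM in tumour 1, and Dusp1 had 372 CPM in tumour 2 and 57.6 CPM in tumour 1. Zfp36l1 had 112 CPM in tumour 2 and 8.16 CPM in tumour 1, and Zfp36l2 had 635 CPM in tumour 2 and 77.7 CPM in tumour 1. All 10 genes were higher in tumour 2, and 8 of 10 were at least 4-fold higher, against 11.3% of all genes tested; Ier2 at 1.55-fold and Ier3 at 2.00-fold were not. This contrast did not choose the genes, but both tumours were in the sarcoma group of the contrast that did. The low Zfp36 of tumour 1 enlarged that contrast. The comparison of the 2 tumours also has 1 library on each side and no replicate check. Of the other early response genes 22 of 46 were at least 4-fold higher. Tumour 2 also had 24262 CPM of neutrophil markers against 126972 CPM in tumour 1, and 15.7 CPM of skeletal muscle markers against 3135 CPM, and its long-transcript deviation was 0.35 against -0.56. The part of these in the difference was not tested. In mouse 2721 the tumours were close: Zfp36 had 59.9 CPM in tumour 2 and 60.1 CPM in tumour 1. There 0 of the 10 genes differed 2-fold or more, against 5.04% of all genes tested.

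Mice 1267 and 2721 gave both tissues. In mouse 1267 Zfp36 was at 34.0 CPM in sarcoma and 135 CPM in marrow, and in mouse 2721 at 60.0 CPM in sarcoma and 279 CPM in marrow. Dusp1 and Klf2 were also lower in the sarcoma of both mice, with log2 ratios of -2.58 and -1.15 for Dusp1 and -3.03 and -1.73 for Klf2. Egr1 went opposite ways in the 2 mice: it was 9.23 CPM in sarcoma and 4.75 CPM in marrow of mouse 1267, and 5.86 CPM in sarcoma and 16.3 CPM in marrow of mouse 2721. Egr2 did likewise, with log2 ratios of sarcoma over marrow of 3.73 in mouse 1267 and -0.40 in mouse 2721, whereas Egr3 was higher in the sarcoma of both (2.21 and 0.36). Marrow 1267 had 0 counts of both Egr2 and Egr3, so the size of these ratios in mouse 1267 depends on the 0.5 CPM added. In mouse 2721 Egr3 had 15 counts in sarcoma and 4 in marrow.

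**Figure D3:**
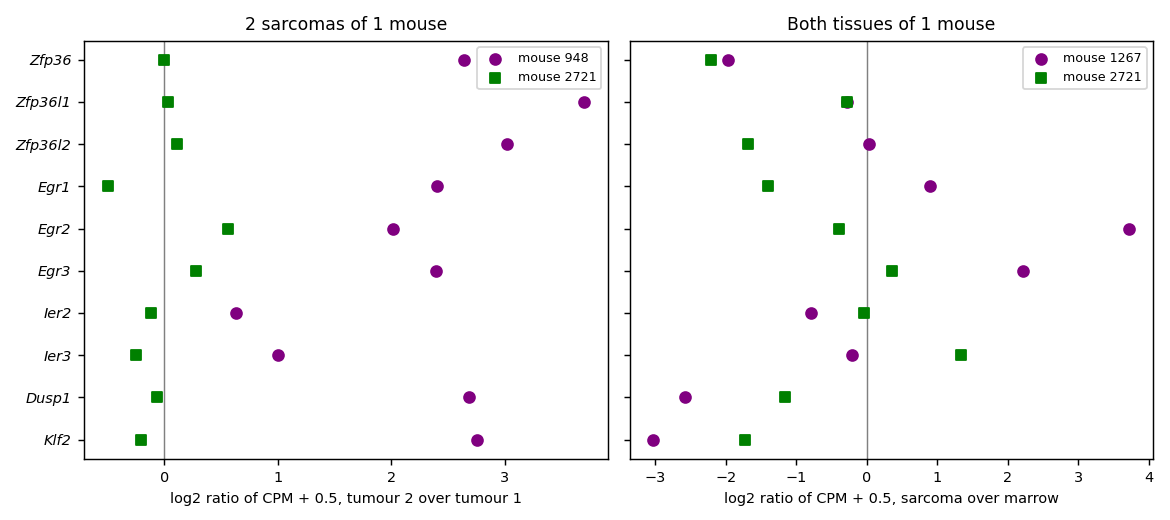
Log2 ratios of CPM + 0.5 for the 10 genes, tumour 2 over tumour 1 in mice 948 and 2721 (left) and sarcoma over marrow in mice 1267 and 2721 (right); each point is 1 gene. All 10 points of mouse 948 lie above 0, whereas those of mouse 2721 on the left lie within 1 log2 unit of 0.

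Whether SMC3 heterozygosity went with these genes could be read only against the SMC3 wild-type sarcoma. Of 17762 genes tested, edgeR called 0 (0.0%), with 236 at an unadjusted p under 0.05, whereas DESeq2 called 60 and limma-voom 0. Of the 10 genes, 0 were called and 0 had an unadjusted p under 0.05 by any of these tools. Zfp36 averaged 59.9 ± 18.4 CPM in the SMC3+/- sarcomas (SD, n = 4) and was 65.3 CPM in the SMC3 wild-type sarcoma, and Dusp1 averaged 110 ± 76.4 CPM against 52.5 CPM. Zfp36l1 and Egr1 had log2 fold changes of SMC3+/- over wild type of 1.43 ± 1.35 and -1.04 ± 0.76 (SE), and neither passed in edgeR. The lone tumour is assumed to vary as the other 4 do, so differences within these errors were not detectable. Set against the same 9 marrows that the choice of genes rested on, the SMC3 wild-type sarcoma was below every marrow for 2 of the 10 genes, Zfp36 and Dusp1, and for 5.04% of all genes tested. Because those marrows are shared, nothing is read from this count.

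The genes were not chosen by their variation among the marrows, but the same 9 marrows were in the contrast that chose them. The high Zfp36 of marrow 949 enlarged that contrast. Marrow 949 had the highest value of 7 of the 10 genes, Zfp36 at 1409.9, Egr1 at 242 and Klf2 at 413 CPM among them, against 14.7% of all genes tested. The summed level of the other early response genes was also highest there, at 13631 CPM, with marrow 779 next at 6309 CPM. Neutrophil markers summed to 124284 CPM in marrow 949 and 120178 CPM in marrow 1267. Their part in this was not tested. Marrow 779 had the highest Egr2 and Ier3, and marrow 2721 had the highest Zfp36l2. Egr3, with too few counts, was left out of the pairs. Over the 9 marrows, 30 of 36 pairs had a positive Spearman correlation of log2 CPM, with a median rho of 0.33, but 0 passed after adjustment over the 36 pairs (exact permutation test, two-sided), with 3 at an unadjusted p under 0.05. By Pearson's r, 3 passed. Zfp36 and Egr1 had a rho of 0.87 (exact permutation p = 0.00451, adjusted p = 0.0812) and an r of 0.89 (exact permutation p = 0.00115, adjusted p = 0.0207). Without marrows 779 and 949, the farthest from the median of Zfp36, their r was 0.59. Zfp36l1 and Zfp36l2 had a rho of 0.87 (exact permutation p = 0.00451, adjusted p = 0.0812) and an r of 0.90 (exact permutation p = 0.000976, adjusted p = 0.0207). Their r was 0.85 without marrows 737 and 782, the farthest from the median of Zfp36l1. Without marrows 737, 779 and 782, all poor in long transcripts, r was 0.65 and rho 0.71. Zfp36 and Klf2 had a rho of 0.65 (exact permutation p = 0.0666, adjusted p = 0.348) and an r of 0.86 (exact permutation p = 0.00403, adjusted p = 0.0484), which rested on marrows 779 and 949: without them r was 0.39. The r of 0.94 for Zfp36 and Ier2 likewise rested on those marrows, being -0.20 without them. Over the 6 marrows other than 737, 779 and 782 the median rho of the pairs was 0.51, and without marrow 949 it was 0.14.

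**Figure D4:**
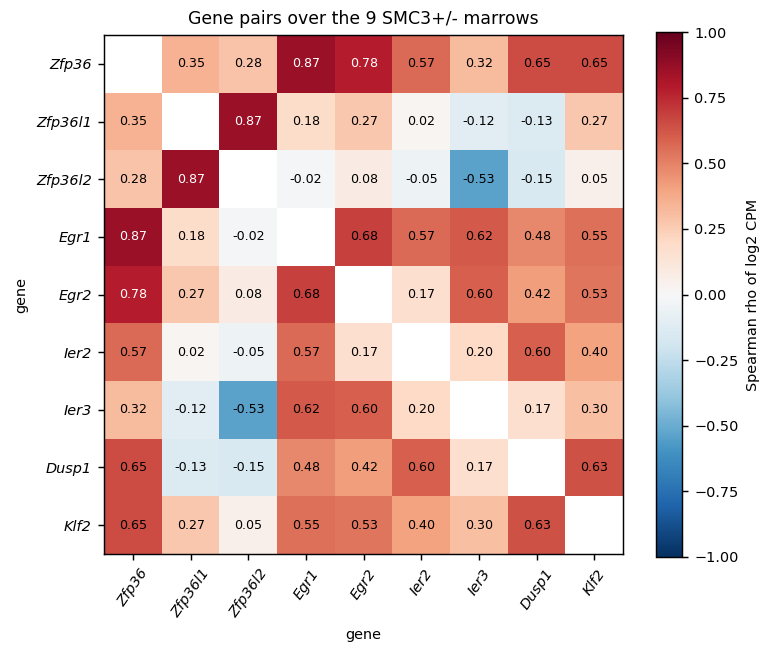
Spearman rho of log2 CPM over the 9 SMC3+/- marrows for each pair of 9 genes, coloured between -1 (blue) and 1 (red); Egr3 is left out. Zfp36 with Egr1 and Zfp36l1 with Zfp36l2 reach 0.87, and the lowest pair, Zfp36l2 with Ier3, is at -0.53.

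A rho of at least 0.7 with Zfp36 was found for 0.796% of 14703 other genes, for 2 of the other 9 early response genes followed here (Egr1 and Egr2) and for 5 of 46 others, Junb, Dusp5, Nr4a1, Btg2 and Plk2. The median rho with Zfp36 was 0.57 for the other 9 genes, 0.43 for the 46 and 0.017 for all genes. These are descriptions over 9 libraries that share their scaling. The 117 genes behind the 0.796% became 1754 without marrows 737, 779 and 782, and up to 365 when 1 marrow was left out, the most without marrow 779. By the lower of Spearman's rho and Pearson's r over the 9 marrows, the genes most like Zfp36 outside the 10, among those whose log2 CPM averaged 3 or more, were Manea (0.91), Flot2 (0.90), Sp110 (0.88), Junb (0.82), Eif5 (0.79) and Hist1h1c (0.78). Manea ran between 14.2 CPM in marrow 1267, which also had the lowest Zfp36, and 55.9 CPM in marrow 949, which had the highest.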

How the data were processed

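Polyadenylated RNA was sequenced, per the labels' protocols, from dissected tumours and from filtered, red-cell-depleted marrow, with spike-in RNA added. The authors deposited raw counts per gene symbol for 16 libraries, with 2844 symbols at 0 throughout and 0 spike-in rows. The mm9 build and the tools STAR, DESeq and DESeq2 appear, unversioned, per the submitters' processing notes. Strand setting and annotation were not found in the labels, so reads of overlapping antisense genes could not be told apart. Libraries of 1 mouse and tissue were summed to 14 samples, and no 2 libraries matched within sampling noise.

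Counts were filtered with filterByExpr, TMM-scaled and tested with glmQLFit (robust) and glmQLFTest in edgeR 4.0.16 under R 4.3.3, with Benjamini-Hochberg adjustment and a threshold of 0.05, two-sided. The SE of a fold change is its size divided by the square root of F. DESeq2 1.42.0 and limma-voom (limma 3.58.1), 4 other scalings, 2 other filters, other treatments of repeated tumours, a mouse block and leaving out each mouse were alternatives. For correlations, a prior count of 2 was added before taking log2 CPM. The labels tie sarcoma and marrow of mice 1267 and 2721 to the same animals, which pairs them; the correlation of their deviations from the tissue means was 0.33 and 0.25. Counting error limits genes of a few CPM, and p-values measure the spread between mice. Statistics were tested on simulated data.

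The 10 genes and all lists were chosen with earlier results of these data known. All 10 are named; of other lists, genes past the test and a few with high CPM are named, plus the 6 most like Zfp36; some examples were picked after their values were seen. 3' UTRs came from GENCODE vM21 and promoters from RefSeq, on a later build than the files and matched by symbol.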

Additional observations from a re-analysis of the deposited data

Results flagged for a closer look

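In 8 of 20 sets of values (10 genes, in 9 marrows and in 4 SMC3+/- sarcoma mice), 1 sample stood farther from the rest than Dixon's 95% limit allows; chance flags about 1 in 20 groups. Over the 14730 genes tested, the same limit was passed in the sarcomas by 0 of the 10 genes, against 17.4% of all, and in the marrows by 8 of the 10, against 16.7% of all. All 8 were highest values in a marrow, and 6 were in marrow 949. There Zfp36 had 1409.9 CPM with the next marrow at 444 CPM, Zfp36l1 had 91.7 CPM with the next at 38.9, and Egr1 had 242 CPM with the next at 44.9. Egr3 had 9.88 CPM with the next at 0.883, Ier2 had 545 CPM with the next at 274, and Klf2 had 413 CPM with the next at 190.1. In marrow 779, Egr2 had 16.7 CPM with the next at 4.49, and Ier3 had 459.5 CPM with the next at 187. Marrow 779 was low in long transcripts (median log2 deviation -2.09) and marrow 949 was not (0.27). The causes were not tested.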

How the results depend on the processing

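The Zfp36 fold change of sarcoma over marrow was negative in all 29 alternatives run, between -2.93 and -0.14 on the log2 scale, and its edgeR, DESeq2 or limma adjusted p was under 0.05 in 13. Because this contrast chose the gene, these counts of settings support nothing. The value nearest 0 came from pan-leukocyte scaling, which moved the median of all genes to 2.10. Without tumour 1 of mouse 948, chosen after seeing the data, it was -2.19 (edgeR adjusted p = 0.113). The 8 genes called lower became 83 with DESeq2, 20 with limma-voom, 13 with no count filter, 35 with a mouse random effect, 3 without marrows 737, 779 and 782 and tumour 1 of mouse 948, 0 when sarcoma 1268_1270 was left out as well, 1 when marrow 949 was left out instead (added after seeing the data) and 4 without tumour 1 of mouse 948. The 662 called higher became 8128 with pan-leukocyte scaling, 1355 with no filter, and 300, 62 and 171 under the first 3 of those library removals. With the mouse as a replicate block, 107 were called higher and 23 lower over all mice, and 81 and 33 over mice 1267 and 2721 alone. Other early response genes called lower, 1 in the main analysis, numbered 7 with DESeq2, 2 with limma-voom, with pan-leukocyte scaling, with no filter and with a mouse random effect, and 0 under all 4 library removals. Those called higher, 2 in the main analysis, numbered 15 with pan-leukocyte scaling, 4 with a mouse random effect, 0 under either block, and 1, 0 and 0 under the first 3 removals. Leaving out each mouse gave 170 to 762 higher and 0 to 16 lower, and 0 to 2 higher and 0 to 1 lower among other early response genes. Against the SMC3 wild-type sarcoma, DESeq2 called 60 genes, and leaving out each SMC3+/- sarcoma mouse gave 0 to 1. There the sign turned under pan-leukocyte scaling for Zfp36 (1.65), Zfp36l2 (0.99), Egr1 (0.58), Egr3 (0.63) and Klf2 (1.49), without tumour 1 of mouse 948 for Zfp36 (0.13) and Zfp36l2 (0.081), and for Zfp36 without sarcoma 1267 (0.052), the highest of its values when each SMC3+/- sarcoma mouse was left out, of which the lowest was -0.40. Gene pairs past the threshold numbered 3 by Pearson's r. The 117 genes with a rho of at least 0.7 with Zfp36 became 199 by Pearson's r, 180 with pan-leukocyte scaling, 1754 without marrows 737, 779 and 782, and 113 to 365 when each marrow was left out. The causes were not tested.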
